A study of Mus musculus with 9 samples.

Results

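The genes described here encode splicing factors and related RNA-binding proteins in lung dendritic cells before and after a period in culture. They were chosen by symbol alone, as all rows of the deposited table named Srsf plus a number, Hnrnp, Snrp plus a letter of the core series or a number, Sf3a or Sf3b plus a number, or Rbm plus a number, with symbols ending in -ps left out (3 rows). The choice gave 100 genes of 45535 rows with a symbol: 12 Srsf, 21 Hnrnp, 15 Snrp, 9 Sf3 and 43 Rbm genes. Read literally, it keeps 5 pseudogene symbols that end in -ps1 or -ps2, the antisense genes Rbm3os and Rbm46os, and Snrpert, a near copy of Snrpe.

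All samples came from C57/BL6j mice 7 days after bleomycin, a drug that injures the lung and is used to model fibrosis. CD103+ dendritic cells were pulled from collagenase-digested lungs with magnetic beads, and each sample is a bulk fraction. In 5 samples the cells were harvested at once (before culture). In the other 4 they first spent 18 h in RPMI with 10% FBS and 1% pen/strep (after culture). Both groups carry the bleomycin treatment, and no untreated mouse or other time point is used here. Whether each sample is 1 mouse or a pool is not stated in the labels, so the p-values measure the spread between these samples, which may be partly technical.

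Pre-mRNA splicing is carried out by the spliceosome, which is built from small nuclear ribonucleoproteins (snRNPs), each holding a short RNA, a ring of Sm proteins and particle-specific proteins. SR proteins (Srsf genes) carry domains rich in arginine and serine and usually favour use of the exons they bind, while many heterogeneous nuclear ribonucleoproteins (Hnrnp genes) favour skipping and also package and export RNA. The SF3a and SF3b complexes, part of the U2 snRNP, hold the branch point, and the Rbm genes are a loose group that share an RNA-recognition motif and little else. SR and hnRNP genes are known to control their own transcripts through exons or introns that send the RNA to nonsense-mediated decay.

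Of the 88 genes tested, 73 matched an entry of RefSeq's promoter table (GRCm38.p6), and 250 bases before each annotated start were searched on both strands. The upstream windows of 4 genes are printed as contrasting examples of promoter type: Srsf6, Srsf9 and Hnrnpa0, which were lower after culture, and Rbm41, which was higher. Capitals mark matches on either strand to GGGCGG, bound by factors of the Sp family, to the NF-Y motif CCAAT and to TATAAA, which the general transcription machinery binds. Each sequence is given 5′ to 3′ on the gene's own strand. None of these windows holds an annotated exon, and Srsf9 was picked after its values were seen.
Srsf6, chr2:162931258-162931507, plus strand: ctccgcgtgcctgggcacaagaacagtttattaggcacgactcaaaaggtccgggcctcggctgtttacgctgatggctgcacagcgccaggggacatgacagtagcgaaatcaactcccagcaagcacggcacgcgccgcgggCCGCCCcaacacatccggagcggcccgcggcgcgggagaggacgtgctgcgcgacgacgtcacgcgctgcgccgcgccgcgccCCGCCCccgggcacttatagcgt
Srsf9, chr5:115326927-115327176, plus strand: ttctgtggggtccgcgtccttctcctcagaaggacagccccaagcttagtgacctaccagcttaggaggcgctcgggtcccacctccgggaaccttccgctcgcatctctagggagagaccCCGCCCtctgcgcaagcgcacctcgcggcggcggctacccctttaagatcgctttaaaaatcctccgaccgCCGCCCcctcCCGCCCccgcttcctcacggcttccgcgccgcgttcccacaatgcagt
Hnrnpa0, chr13:58128557-58128806, minus strand: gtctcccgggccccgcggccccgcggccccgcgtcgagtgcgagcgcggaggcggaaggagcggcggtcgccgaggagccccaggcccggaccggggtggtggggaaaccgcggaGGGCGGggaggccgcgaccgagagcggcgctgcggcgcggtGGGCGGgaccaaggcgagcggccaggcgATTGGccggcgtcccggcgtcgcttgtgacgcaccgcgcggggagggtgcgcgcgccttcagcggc
Rbm41, chrX:139998596-139998845, minus strand: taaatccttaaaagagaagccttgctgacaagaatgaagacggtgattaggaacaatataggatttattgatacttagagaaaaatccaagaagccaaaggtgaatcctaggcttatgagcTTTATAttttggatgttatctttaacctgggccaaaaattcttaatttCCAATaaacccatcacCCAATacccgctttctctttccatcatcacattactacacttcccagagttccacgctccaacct
The windows of Srsf6, Srsf9 and Hnrnpa0 are 68.4%, 65.2% and 81.2% G and C, and that of Rbm41 is 37.6%. These windows were printed for contrast, and whether direction goes with this share was not tested. Hnrnpa1, lower after culture, has a window of 46%, and Rbm14, higher after culture, has a window of 63.2% (named after its values were seen). Matches were counted by gene, in any of its windows, against all 27025 genes of the promoter table, tested or not. The letters GGGCGG stood in 42 of the 73 genes (57.5%) and in 10 of 11 Srsf genes, against 35.4% of all genes. CCGGAAG, a motif of ETS factors, stood in 20 of 73 (27.4%), 6 of them among the 7 Sf3 genes, against 7.83% of all genes. CCAAT stood in 34 of 73 (46.6%), with 13 of 18 among the Hnrnp genes, against 37.5% of all genes. These matches describe the letters only.

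Of the 11 tested Srsf genes, 8 were lower after culture and 2 were higher, with a median log2 difference of −0.65. The median was −0.12 in the Hnrnp, −0.29 in the Snrp and −0.12 in the Sf3 genes. The Rbm genes split, with 17 of 35 higher and 10 lower and a median of 0.23. A gene was tested where its mean normalized count was at least 10, and it was called changed at an adjusted p under 0.05 (limma on log2 values, Benjamini-Hochberg over all 18202 genes tested). Of the 88 tested members, 60 (68.2%) were called, close to the 68.8% called among all genes. Higher were 23 (26.1%, against 34.2% of all genes) and lower were 37 (42.0%, against 34.6%). The share of calls that were higher was 38.3%, and 28 members were higher and 28 lower under upper quartile scaling, which moves the median log2 difference of all genes from 0.01 to 0.12. The median log2 difference was −0.12 over the members and 0.01 over all genes.

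Large changes were uncommon among the members. Only 9 of the 88 (10.2%) were called with a difference of at least 2-fold, against 32.7% of all genes tested. The 2 groups of samples did not overlap for 48 members (54.5%), against 57.3% of all genes. Replicates of these genes lay close together, with a median coefficient of variation of 7.58% before and 9.28% after culture, against 14.0% and 15.2% over all tested genes. None of these comparisons with all genes was matched for mean count.

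**Figure D1:**
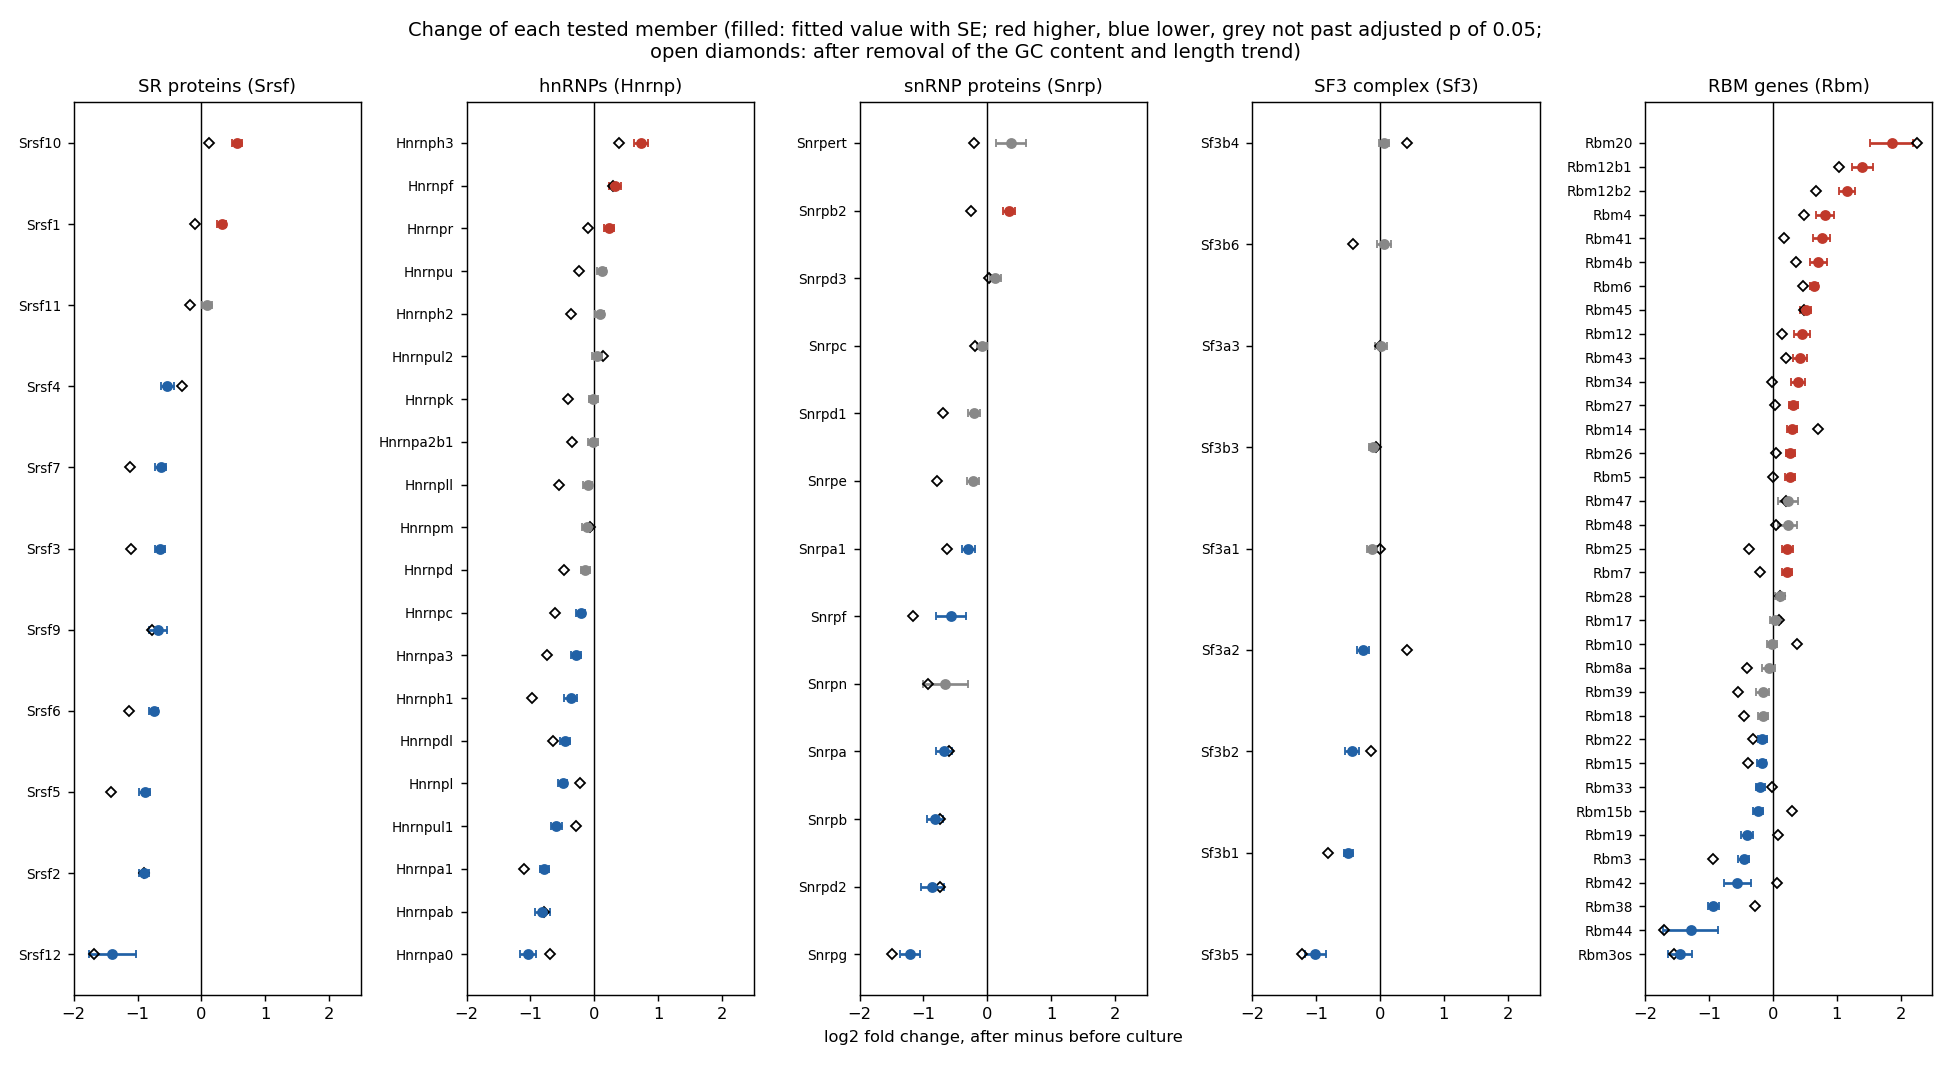
Log2 difference (after minus before culture) of each of the 88 tested genes with its standard error, by family; red was called higher, blue lower and grey neither, and open diamonds give the value after removal of the trend over GC content and length. In the Srsf panel 8 of 11 points are blue, and in the Rbm panel 17 of 35 are red.

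The differences between the groups are wide throughout the table and follow base composition. In 5 equal bins of genes by transcript GC content, from lowest to highest, the median log2 difference of all tested genes was 0.44, 0.21, 0.03, −0.21 and −0.43. The members are low in GC, with a median of 44.9% against 49.3% over all genes, and 35 of the 88 lie in the lowest bin, where the members' median was 0.06. With each sample's trend over GC content and length removed, 14 members were higher and 48 lower, so that 22.6% of calls were higher, and of 17797 genes with a GC content and length 6049 were higher and 5890 lower. That correction was an alternative here and not the main test, and its values stand beside the named genes whose call it ends, gains or turns. The part of this trend in the differences was not tested.

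**Figure D2:**
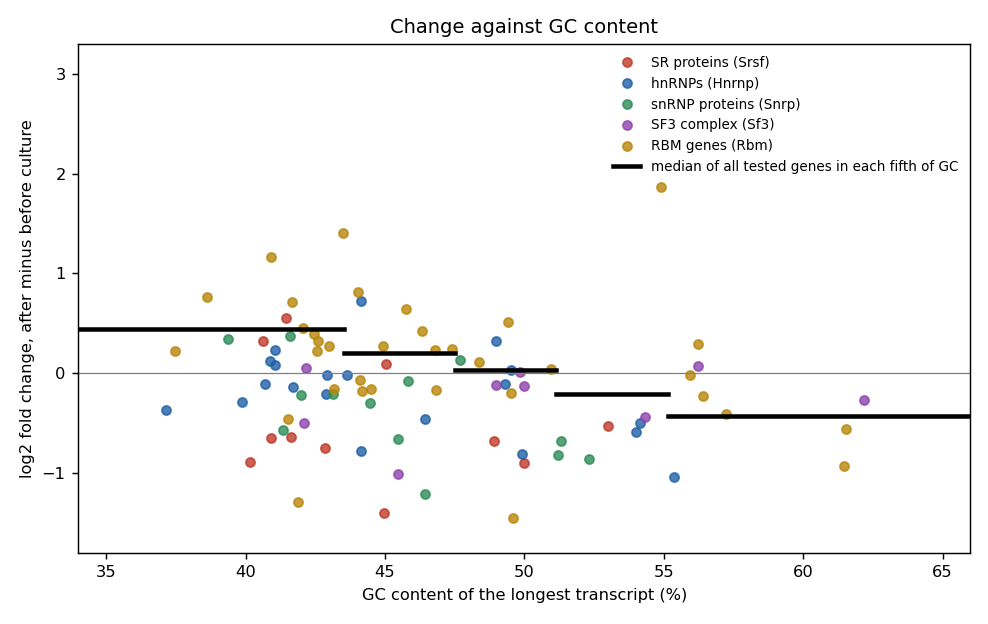
Log2 difference (after minus before culture) of the 88 tested genes against the GC content of their longest transcript in percent, coloured by family; black bars give the median of all tested genes in each of 5 bins of GC content. The bars step down from 0.44 to −0.43, and the points of Srsf3, Srsf5, Srsf6 and Srsf7 in the lowest bin lie far below the bar.

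Other features of the samples moved between the groups as well. Depth in rows with a symbol was 14.7 to 28.8 M reads before and 26.0 to 35.3 M after culture. Of 12 cDC1 markers, 9 were lower and 3 higher after culture, and their summed normalized count was 158050 to 188660 before and 45637 to 48051 after. Itgae, which encodes CD103, was detected in all samples, at 15948 to 20174 before and 1281 to 2034 after. All 9 tested neutrophil markers of 11 fell (summed 14477 to 25246 before, 944 to 1927 after), with Ly6g listed at 0 in every sample after culture, and all 11 endothelial markers fell (32177 to 46328 before, 5823 to 7196 after). All 10 fibroblast markers (17669 to 31602 before, 2511 to 4870 after), 9 of 12 epithelial markers (27070 to 46359 before, 6539 to 11000 after) and 6 of 7 NK cell markers (1371 to 2904 before, 296 to 541 after) fell as well. Of 7 cDC2 markers 5 were lower and 1 higher, and of 12 macrophage markers 6 were lower and 1 higher. Summed counts overlapped in both lists. Of 11 T cell markers 3 were lower and 1 higher, and of 8 B cell markers 2 were lower and 1 higher. Those shares of lower markers, 27.3% and 25%, were below the 34.6% of all genes. All 12 cell-cycle genes were lower too, with a median log2 difference of −2.37. The part of these shifts in the results below was not tested, and in bulk RNA fewer cells of a type and less RNA per cell cannot be told apart.

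Among the SR proteins, Srsf5, Srsf2, Srsf6 and Srsf3 had the highest mean counts before culture, and all of them fell without overlap of the groups. After culture Srsf1, which was called higher, had the highest mean of the family (4818). Srsf2, which encodes SC35, a protein of nuclear speckles, lies at chr11:116849901-116853094 on the minus strand (GRCm38) and had the highest normalized count per 1000 bases of exon of all members before culture, 2347, against 1254 after. Its normalized counts were 7144, 7036, 7339, 5856 and 7332 in replicates 1 to 5 before culture and 3733, 3846, 3835 and 3420 in replicates 1 to 4 after. The groups were far apart, and replicate 4 before culture was the lowest of its group. The log2 difference was −0.90 (SE 0.08, adjusted p = 3.61e-07, limma), a 1.87-fold fall, and −0.89 after the GC and length correction. Srsf2 overlaps Mettl23 and Mfsd11 on the other strand, and the strand setting of the counting is not given in the sources used here, so reads from these genes cannot be told apart. The same limit holds for other members that overlap a gene on the other strand. Among those named below are Hnrnph3 (Rufy2), Hnrnpab (Phykpl), Snrpa (BC024978) and Rbm12b2 (Tmem67).

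Srsf5, an SR protein first described in regenerating liver, gave 7545, 7124, 7078, 7022 and 7625 before and 3956, 3660, 4636 and 3550 after culture. All samples after culture lay below all samples before, with a log2 difference of −0.89 (SE 0.08, adjusted p = 5.06e-07, limma) and of −1.41 after correction. Srsf6 (chr2:162931528-162937121, plus strand), an exon-definition factor, gave 5880, 5592, 5735, 5386 and 6195 before and 3464, 3506, 3540 and 3192 after. The groups again did not overlap, and the log2 difference was −0.75 (SE 0.07, adjusted p = 3.8e-07, limma), or −1.13 after correction.

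Srsf3 and Srsf7 are closely related SR proteins that also link splicing to export of the mRNA. Srsf3 gave 5134, 4998, 5220, 4880 and 5513 before and 3380, 3023, 3686 and 3071 after culture. Srsf7 gave 3592, 3516, 3486, 4063 and 3904 before and 2569, 2042, 2616 and 2329 after. Neither gene had overlapping groups, with log2 differences of −0.65 (adjusted p = 4.57e-06) and −0.64 (adjusted p = 1.76e-05, limma). Both values were larger after correction, −1.11 and −1.12. Of the 50-base windows of the Srsf3 transcript, 18.3% also occur in other transcripts, mainly Gm12355, so some of its reads may have been placed elsewhere.

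The other 3 Srsf genes that fell were Srsf4, Srsf9 and Srsf12, named here after their values were seen. Srsf9, at 1433, 1408, 1454, 854 and 1353 before and 791, 863, 681 and 862 after culture, had overlapping groups because replicate 4 before culture lay at the level of the cultured samples. Its log2 difference was −0.68 (adjusted p = 0.000938, limma). Srsf12 is scarce, with means of 28.5 before and 9.54 after culture.

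The 2 Srsf genes called higher were Srsf1 and Srsf10. Srsf1, the prototype SR protein (SF2/ASF), gave 4010, 4024, 4033, 3407 and 3831 before and 4634, 4945, 4821 and 4872 after culture, with no overlap and a log2 difference of 0.32 (SE 0.07, adjusted p = 0.00107, limma). Srsf10, an SR-like protein that acts as a repressor when dephosphorylated, gave 1899, 1935, 2097, 2109 and 1999 before and 2714, 2813, 3147 and 3161 after. All cultured samples were above all uncultured ones, with a log2 difference of 0.56 (SE 0.07, adjusted p = 1.33e-05, limma). Neither rise held after the GC and length correction, where the values were −0.10 (adjusted p = 0.359) for Srsf1 and 0.11 (adjusted p = 0.105) for Srsf10. Srsf11 did not pass the test (log2 0.09, adjusted p = 0.363) and was lower after correction (−0.18, adjusted p = 0.0392). Corrected, the Srsf family therefore had 9 lower and 0 higher genes of 11, with a median log2 difference of −0.89 in place of −0.65.

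**Figure D3:**
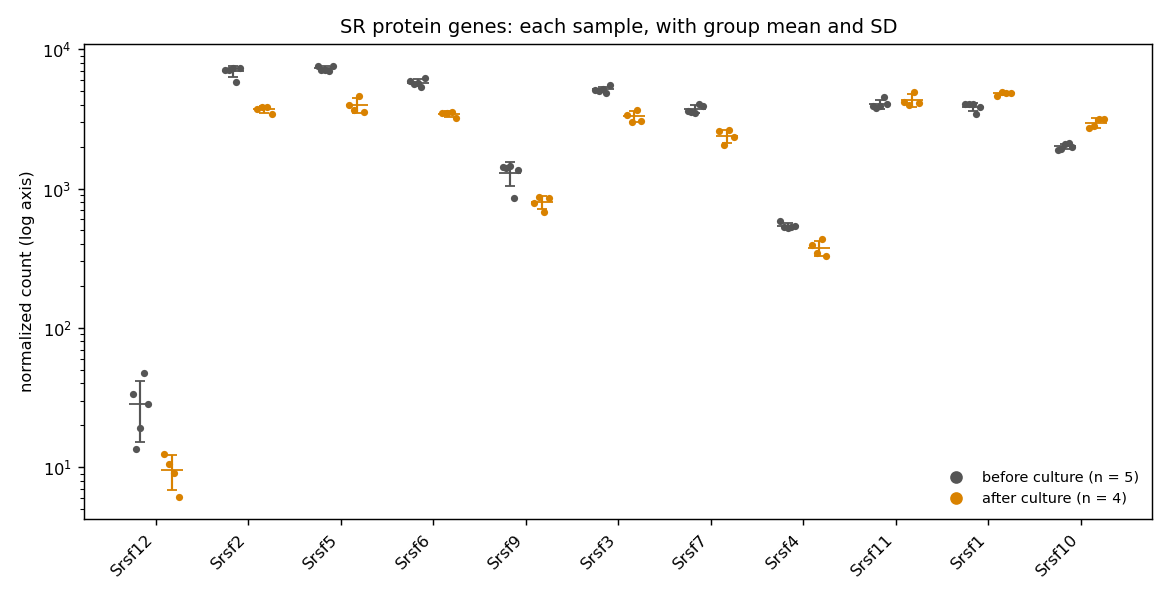
Normalized count (log axis) of each tested Srsf gene in every sample, grey before (n = 5) and orange after culture (n = 4), with group mean and SD. Srsf2, Srsf5, Srsf6, Srsf3 and Srsf7 separate with the cultured samples lower, and Srsf1 and Srsf10 separate with the cultured samples higher.

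Turning to the hnRNP proteins, of 20 tested Hnrnp genes, 9 were lower and 3 higher, and 8 did not pass the test. Lower were 45%, against 34.6% of all genes, and higher 15%, against 34.2%. The median log2 difference was −0.12. Hnrnpa0, an intronless gene at chr13:58125879-58128556 whose protein binds AU-rich mRNA, gave 4058, 4165, 4050, 2580 and 3981 before and 1707, 1886, 1711 and 1940 after culture. Its groups did not overlap although replicate 4 before culture was far below the others, and the log2 difference was −1.04 (SE 0.13, adjusted p = 7.43e-06, limma), the only 2-fold change among called Hnrnp genes. After correction it was −0.70.

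Hnrnpa1, the classical antagonist of SR proteins at the choice of splice sites, gave 5005, 4634, 4470, 4485 and 5238 before and 2836, 2926, 2683 and 2631 after culture. The highest cultured sample lay far below the lowest uncultured one, and the log2 difference was −0.78 (SE 0.07, adjusted p = 4.76e-07, limma) or −1.10 after correction. Hnrnpab, a relative that binds AU-rich RNA, gave 4680, 4439, 4556, 3177 and 4380 before and 2417, 2870, 2006 and 2364 after, again without overlap (log2 −0.81, adjusted p = 5.24e-05, limma). For Hnrnpa1, 28.3% of the windows are shared, mainly with the copy Gm10052.

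Hnrnpl, which represses exons through CA-rich elements, gave 10443, 9942, 10204, 9270 and 10548 before and 7064, 7442, 6830 and 7210 after culture. The log2 difference was −0.50 (adjusted p = 1.96e-05, limma), with no overlap, and −0.22 after correction. Its paralog Hnrnpll, known for controlling the splicing of the Cd45 gene in lymphocytes, ranged from 2589 to 2884 before and from 2431 to 2661 after and did not pass (log2 −0.10, adjusted p = 0.168; −0.55 after correction). Hnrnpul1 fell as well (log2 −0.59, adjusted p = 3.57e-05; −0.29 after correction). Hnrnpc, which binds U-rich tracts, was lower (log2 −0.21, adjusted p = 0.0166; −0.61 after correction), and the call was lost without replicate 1 after culture (adjusted p = 0.067).

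Several abundant hnRNP genes did not pass the test. Hnrnpk, a poly(C)-binding protein, ranged from 11674 to 13090 before and from 11650 to 12698 after culture (log2 −0.02, adjusted p = 0.833). Of the Hnrnpk windows, 34.5% are shared, mainly with Gm7964. Hnrnpa2b1 ranged from 9486 to 10337 before and 8778 to 11117 after (log2 −0.02, adjusted p = 0.821), and Hnrnpu, the nuclear scaffold protein SAF-A, from 9401 to 10099 and from 9820 to 11395 (log2 0.12, adjusted p = 0.139). Hnrnpd, also called AUF1, a factor of mRNA decay, had a log2 difference of −0.14 (adjusted p = 0.0773). After the correction all 4 were lower, at −0.41, −0.35, −0.24 and −0.47, and the family count became 15 lower and 2 higher.

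The largest rise was that of Hnrnph3, an hnRNP of the H and F type that binds G runs. It gave 418, 402, 480, 345 and 467 before and 686, 632, 801 and 676 after culture, without overlap. The log2 difference was 0.73 (SE 0.11, adjusted p = 5.77e-05, limma), and 0.38 after correction. The other 2 genes called higher, named after their values were seen, were Hnrnpf (log2 0.33, adjusted p = 0.00448) and Hnrnpr (log2 0.23, adjusted p = 0.0177), the latter not without replicate 3 after culture (adjusted p = 0.0566). After correction the rise of Hnrnpr did not hold (−0.10, adjusted p = 0.241).

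**Figure D4:**
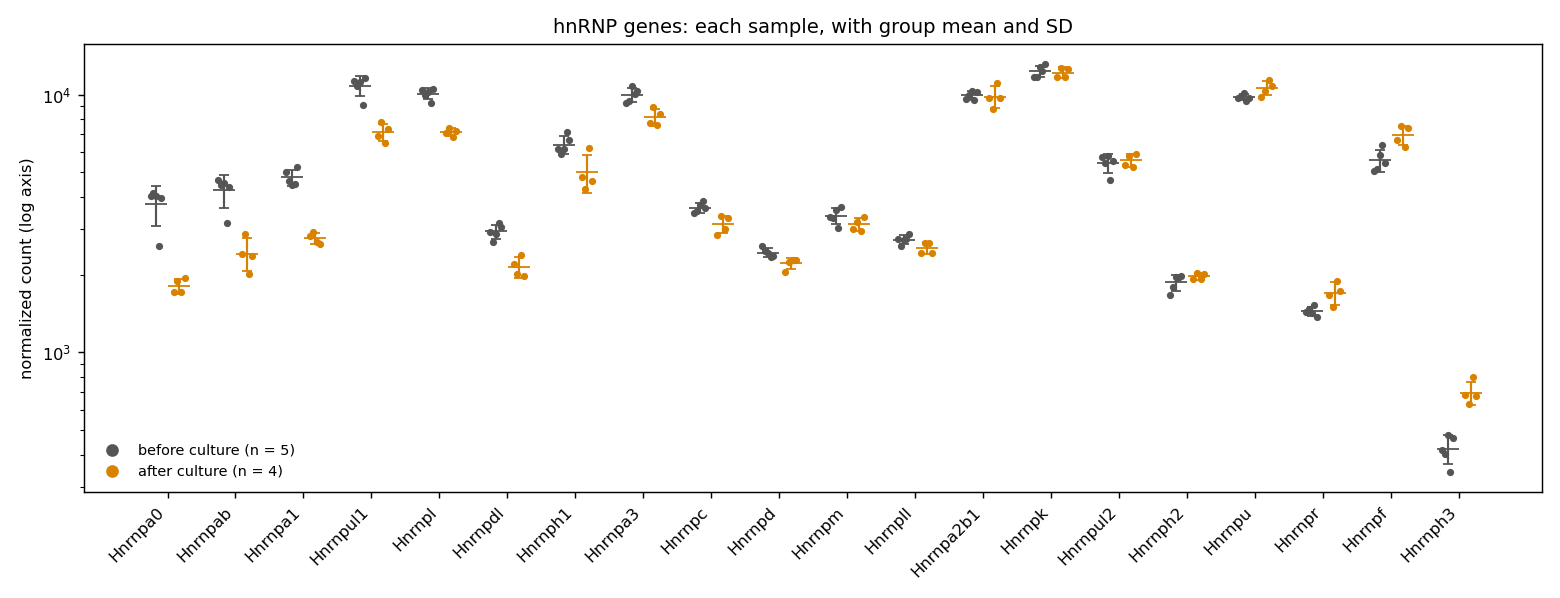
Normalized count (log axis) of each tested Hnrnp gene in every sample, grey before (n = 5) and orange after culture (n = 4), with group mean and SD, ordered by log2 difference. The groups separate at both ends, from Hnrnpa0 (lower) to Hnrnph3 (higher), and overlap for Hnrnpk and Hnrnpa2b1 in between.

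Among the core snRNP proteins, of 13 tested Snrp genes, 6 were lower, 1 was higher and 6 did not pass. Lower were 46.2%, against 34.6% of all genes, and higher 7.69%, against 34.2%. The median log2 difference of these Snrp genes was −0.29. They encode proteins of the Sm ring, of U1 and of U2. In the Sm ring Snrpg fell most: 578, 526, 558, 376 and 519 before and 277, 237, 174 and 198 after culture. The groups were separate, and the log2 difference was −1.21 (SE 0.15, adjusted p = 1.12e-05, limma), or −1.49 after correction. In 7 of the 13 Snrp genes more than 10% of the windows are shared with other transcripts. Among them are Snrpg (18.1%), Snrpf (21.3%) and Snrpd2 (11.7%), so some of their reads may have been placed elsewhere.

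Snrpb, which encodes SmB and SmB′, gave 2367, 2532, 2605, 1720 and 2354 before and 1278, 1478, 1126 and 1343 after culture. Snrpd2 gave 754, 803, 749, 384 and 621 before and 370, 382, 304 and 361 after. In both genes replicate 4 before culture was the lowest of its group, for Snrpd2 only just above the cultured samples. The log2 differences were −0.82 (adjusted p = 3.68e-05) and −0.86 (adjusted p = 0.000926, limma). Snrpd1, another Sm protein, missed the threshold (log2 −0.21, adjusted p = 0.0522) and was lower after correction (−0.70, adjusted p = 9.23e-05). Snrpn, the imprinted relative of Snrpb that marks neurons, was near the floor of testing, at 7.62 to 21.5 before and 6.37 to 11.4 after (adjusted p = 0.113; 0.0284 after correction, log2 −0.93). Snrpn overlaps Snurf and Gm38393 on its own strand. The fall of Snrpf, chosen after its values were seen, was called at an adjusted p of 0.0457 and lost in 6 of 9 fits that left out 1 sample. Its log2 difference was −0.57, and −1.15 after correction.

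Of the U1 proteins, Snrpa gave 1730, 1658, 1718, 1112 and 1611 before and 1002, 1136, 825 and 930 after culture. Replicate 4 before culture lay among the cultured samples, and the log2 difference was −0.68 (SE 0.13, adjusted p = 0.000463, limma). Snrpc did not pass (log2 −0.07, adjusted p = 0.412; −0.18 after correction, adjusted p = 0.0524). The U2 proteins went both ways: Snrpa1 was lower (log2 −0.29, adjusted p = 0.0155, lost without replicate 1 after culture at 0.0611; −0.63 after correction). Its partner Snrpb2 gave 617, 620, 638, 743 and 752 before and 779, 873, 848 and 923 after, all cultured samples being above the rest (log2 0.35, adjusted p = 0.00401, limma). After correction Snrpb2 had the opposite sign (−0.26, adjusted p = 0.0145), and the family had 10 lower and 0 higher genes.

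In SF3a and SF3b, of the 9 Sf3 genes, 4 were lower, 0 were higher and 5 did not pass. Lower were 44.4%, against 34.6% of all genes, and higher 0%, against 34.2%. Sf3b1, the scaffold of SF3b and the splicing gene most often mutated in myelodysplastic syndromes, gave 16673, 16359, 16361, 18651 and 17404 before and 12058, 11501, 13070 and 11876 after culture. No sample after culture reached the uncultured range, and the log2 difference was −0.49 (SE 0.07, adjusted p = 4.76e-05, limma), or −0.82 after correction. Sf3b5, a small subunit bound to SF3B1 and SF3B3, gave 827, 686, 746, 445 and 700 before and 315, 400, 274 and 343 after, a 2.05-fold fall (log2 −1.01, SE 0.16, adjusted p = 9.5e-05, limma).

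The other SF3 subunits differed by less. Sf3a1 (log2 −0.12, adjusted p = 0.199), Sf3b3 (log2 −0.11, adjusted p = 0.113) and Sf3b4 (log2 0.07, adjusted p = 0.463) did not pass. Sf3b3 ranged from 4542 to 4863 before and from 4274 to 4506 after culture, so its groups did not overlap even so. The other 2 genes called lower, named after their values were seen, were Sf3b2 (log2 −0.44; not after correction, −0.14, adjusted p = 0.134) and Sf3a2 (log2 −0.27, lost in 6 of 9 fits that left out 1 sample). After correction 2 Sf3 genes were higher, Sf3a2 and Sf3b4 (both 0.42), and 3 were lower. Of the windows of Sf3b4, 49.3% are shared with other transcripts. Over the 9 subunits of SF3a and SF3b the log2 differences ran from −1.01 to 0.07.

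Among the Rbm genes that fell, Rbm38, a p53 target that binds the mRNA of Cdkn1a and of p53 itself, gave 1917, 1703, 1927, 1540 and 2092 before and 920, 952, 990 and 962 after culture. The cultured samples were almost equal among themselves (mean 956, SD 29.1, n = 4), and the log2 difference was −0.93 (SE 0.09, adjusted p = 6.91e-07, limma), shrinking to −0.29 after correction. Rbm3, the cold-inducible RNA-binding protein, gave 5407, 4692, 5961, 5694 and 6573 before and 3758, 4277, 4196 and 4165 after. The groups did not overlap (log2 −0.46, SE 0.09, adjusted p = 0.000559, limma; −0.93 after correction).

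Its antisense neighbour Rbm3os, chosen after its values were seen, fell from 135 ± 13.3 (SD, n = 5) to 49.8 ± 13.8 (SD, n = 4; log2 −1.45). The pair overlaps on opposite strands, so without the strand setting their reads cannot be told apart. Rbm19, a factor of ribosome biogenesis, was lower (log2 −0.40, adjusted p = 0.00148) but not after correction (0.08, adjusted p = 0.367). The fall of Rbm33 (log2 −0.20, adjusted p = 0.0235) was lost in 4 of 9 fits that left out 1 sample, namely replicate 5 before and replicates 1, 2 and 4 after culture. It did not hold after correction either (−0.02, adjusted p = 0.847).

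Among the Rbm genes that rose, the paralogs Rbm12b1 and Rbm12b2, neighbours on chromosome 4, rose the most among genes of mean count 100 or more. Rbm12b1 gave 70.5, 53.2, 69.6, 92.1 and 77.0 before and 202, 160, 187 and 216 after culture (log2 1.40, SE 0.17, adjusted p = 7.06e-06, limma). Rbm12b2 gave 217, 249, 208, 246 and 215 before and 439, 443, 643 and 536 after (log2 1.17, SE 0.13, adjusted p = 2.32e-06, limma). Every cultured sample exceeded every uncultured one in both genes, and the corrected values were 1.04 and 0.68. They share 63.1% and 53.8% of their windows, largely with each other, so how the rise divides between them is uncertain.

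Rbm4, which regulates alternative splicing and translation in muscle and nerve, gave 220, 193, 180, 255 and 213 before and 375, 307, 460 and 359 after culture. The groups were separate (log2 0.82, SE 0.14, adjusted p = 0.000133, limma), with 0.48 after correction. However, 62.6% of the Rbm4 windows are shared with other transcripts, mainly those of the readthrough gene Gm21992. Rbm41, a protein of the minor spliceosome, gave 276, 287, 244, 391 and 267 before and 535, 438, 517 and 477 after. It was higher without overlap (log2 0.76, SE 0.13, adjusted p = 0.000168, limma), and the rise did not hold after correction (0.18, adjusted p = 0.138). Rbm20, the titin splicing factor of heart muscle, was singled out after its values were seen. It is scarce, at 3.71 to 7.62 before and 13.6 to 30.0 after culture, with a log2 difference of 1.86.

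Among other abundant Rbm genes, Rbm39, a U2AF-related factor degraded by aryl sulfonamide drugs, ranged from 7493 to 9131 before and from 5854 to 8597 after culture and did not pass (log2 −0.16, adjusted p = 0.185). It passed without replicate 3 after culture (adjusted p = 0.0282) and after correction (−0.54, adjusted p = 9.37e-05). Rbm5, a regulator of exons in apoptosis genes, was higher (log2 0.27, adjusted p = 0.00999), and did not pass after correction (0.00106, adjusted p = 0.991). Rbm25, a U1-associated factor, was higher (log2 0.23, adjusted p = 0.0321) and lower after correction (−0.37, adjusted p = 0.000254), and its call was lost in 5 of 9 fits that left out 1 sample, replicates 1, 2 and 3 before and 3 and 4 after culture. Rbm10 (log2 −0.02), Rbm17 (log2 0.04) and Rbm47 (log2 0.24) did not pass, with adjusted p of 0.854, 0.717 and 0.183, and Rbm10 was higher after correction (0.38, adjusted p = 0.00041). Of the Rbm10 windows, 41.0% are shared, mainly with Gm12799. Rbm47, an epithelial and myeloid factor, passed without replicate 3 after culture (adjusted p = 0.0149). After correction the family had 10 higher and 11 lower genes of 35.

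Summed over the members of a family, the share of all normalized counts in named rows was lower in 4 of 5 families without overlap of the groups. Among single genes, 57.3% of all those tested had groups that did not overlap. How often sums over other sets of genes separate was not tested. Srsf genes took 0.157 ± 0.00395% before and 0.119 ± 0.0130% after culture (SD, n = 5 and 4), and Hnrnp genes 0.433 ± 0.00993% and 0.384 ± 0.0183%. Snrp genes took 0.0353 ± 0.00239% and 0.0271 ± 0.00105%, and Sf3 genes 0.137 ± 0.00434% and 0.111 ± 0.00410%. The Rbm share, 0.205 ± 0.0127% before and 0.214 ± 0.0182% after, overlapped between groups. These shares weigh each gene by its counts and so are led by the abundant members.

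**Figure D5:**
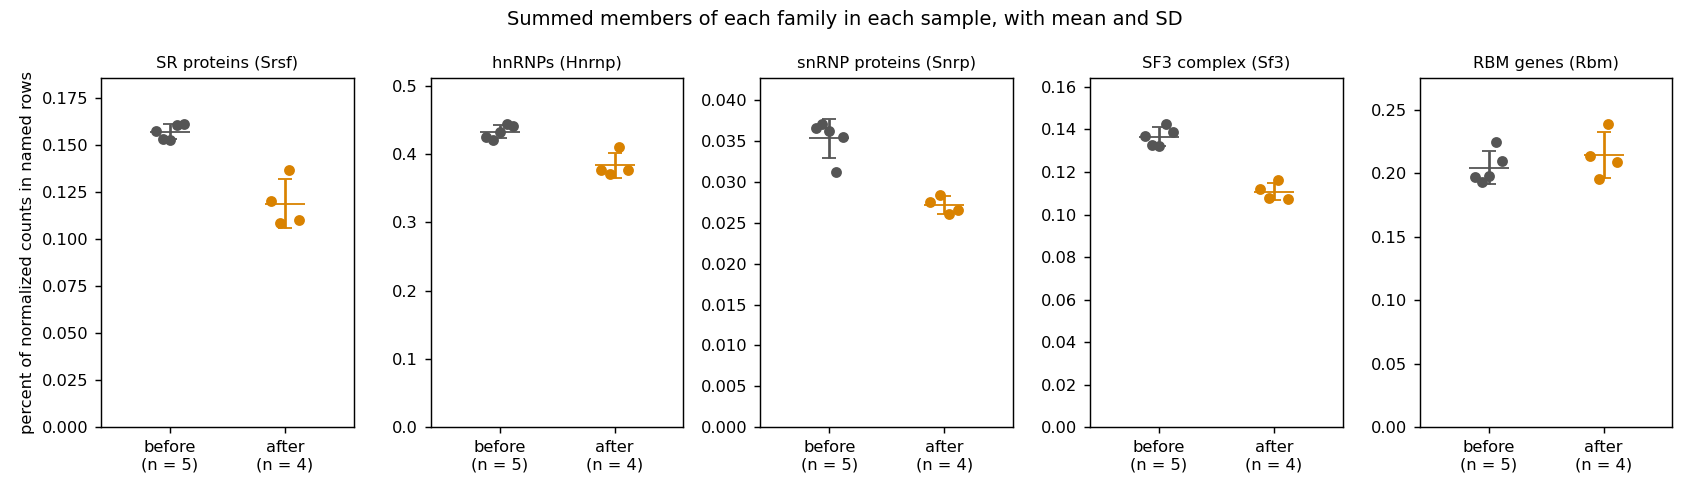
Summed normalized counts of each family as a percent of all named rows in every sample, grey before (n = 5) and orange after culture (n = 4), with group mean and SD and axes that start at 0. The groups are separate in the Srsf, Hnrnp, Snrp and Sf3 panels and overlap in the Rbm panel.

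The order of the most abundant members changed with the groups. Per 1000 bases of exon, Srsf2 was the highest before culture at a normalized count of 2347, ahead of Hnrnpk at 1904. After culture Hnrnpf led at 2285, ahead of Hnrnpk at 1880, and Srsf2 stood at 1254. Hnrnpf, named after its values were seen, shares 49.0% of its windows with other transcripts, mainly Gm6430.

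The annotation of the members differs by family. A transcript marked for nonsense-mediated decay is annotated (GENCODE M21) for 9 of 11 tested Srsf genes, 10 of 20 Hnrnp, 4 of 13 Snrp, 1 of 9 Sf3 and 12 of 35 Rbm genes, 36 of 88 in all, against 27.4% of 13933 protein-coding genes tested. A transcript with a retained intron is annotated for 61 of the 88, against 56.8% of those genes. The values here are counts per gene, so the use of such transcripts was not measured.

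There were 12 members below the test's minimum mean of 10. Of these, 7 had no read in any sample: Hnrnpa1l2-ps2, Rbm31y, Rbm46os, Rbm8a2, Snrp1c-ps1, Snrp1c-ps2 and Srsf19. The other 5, Rbm11, Rbm24, Rbm46, Rbm6-ps1 and Rbm6-ps2, had group means of at most 10.9. Rbm42, named after its values were seen, passed at a mean of 62.8 before and 43.6 after culture. However, 92.3% of its windows also occur in other transcripts, mainly those of the readthrough gene Gm21982, so the level of Rbm42 is uncertain. Its fall (log2 −0.56, adjusted p = 0.0301) was lost in 3 of 9 fits that left out 1 sample, replicates 3 and 5 before and 2 after culture, and after correction (0.07, adjusted p = 0.804).

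Other genes of the splicing pathway were counted from lists of 137 genes, of which 134 were tested. Of these, 35 (26.1%, against 34.2% of all genes) were higher and 50 (37.3%, against 34.6%) lower, with a median log2 difference of −0.04. In the spliceosome core outside the families, 11 of 49 were higher (22.4%) and 19 lower (38.8%, near the 34.6% of all genes). Sf1, which binds the branch point before SF3 does, fell from 13241 ± 999.8 (SD, n = 5) to 7421 ± 107 (SD, n = 4; log2 −0.83, adjusted p = 3.18e-07, limma), and the corrected log2 difference was −0.45. Lsm4, of the Sm-like ring on U6 RNA, had a log2 difference of −1.46 (adjusted p = 4.94e-06). Snrnp27, a protein of the tri-snRNP, was higher (log2 0.58, adjusted p = 0.000512; 0.37 after correction).

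Among 25 regulators and partners of SR proteins, 6 were higher (24%, against 34.2% of all genes) and 11 lower (44%, against 34.6%). Clk1, a kinase that phosphorylates SR proteins, gave 6931, 6960, 6761, 8306 and 7396 before and 4098, 2843, 5214 and 3489 after culture (log2 −0.93, adjusted p = 4.96e-05, limma; −1.43 after correction). Tra2a, an SR-like activator of exons, fell alongside (log2 −0.77, adjusted p = 3.03e-07), while Pnisr, an SR-rich protein of speckles, was higher (log2 0.77, adjusted p = 4.6e-05; 0.49 after correction). Of 41 tested RNA-binding regulators, 11 were higher (26.8%) and 20 lower (48.8%), against the same 34.2% and 34.6% of all genes. Nova2, a splicing regulator of neurons, had the largest fall named, from 258 ± 25.4 to 14.9 ± 10.1 (SD, n = 5 and 4; log2 −4.30, adjusted p = 3e-07, limma). Ptbp2 (log2 1.08, adjusted p = 1.54e-05; 0.32 after correction) and Tia1, a U-rich RNA binder of stress granules (log2 1.07, adjusted p = 1.4e-06; 0.65 after correction), were higher. In the list of the minor spliceosome and snRNP assembly, 7 of 19 tested genes were higher (36.8%, near the 34.2% of all genes) and 0 lower, or 7 and 2 after correction. Ddx20 (Gemin3, log2 0.71, adjusted p = 6.25e-06) and Zcrb1, a U11/U12 protein (log2 0.63, adjusted p = 1.23e-05; 0.25 after correction), were among those higher.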

How the data were processed

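RNA of CD103+ lung dendritic cells was sequenced in 5 samples before and 4 after culture, grouped by the labels. The table the authors deposited holds a non-negative signal, normalized counts of reads by gene, in 49317 rows, 45535 of them with a symbol. The 3782 rows without one, 6.43 to 10.9% of reads before and 3.87 to 5.46% after culture, were left out of tests and depths. All values (100%) were whole multiples of 1 read within 0.0001, so whole reads were recovered. The submitters' processing notes name DESeq2 and GRCm38. Aligner, counter, annotation and strandedness are not given in the sources used here, and the labels' protocol speaks of total lung RNA on a Qiagen column.

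Genes with a mean of at least 10 were fitted with limma 3.58.1 (R 4.3.3) on log2(value + 1), with group as the only term and a mean-variance trend, two-sided, adjusted by Benjamini-Hochberg at 0.05. Fold changes on this scale understate changes of low genes. GC content, length and shared 50-base windows came from GENCODE M21 (99 of 100 members matched, 97.8% of tested genes). More than 10% of windows were shared in 26 of the 88 tested members, and not all of these are marked above. The members and lists were chosen with earlier results of these data known. Named members are up to 4 largest rises and falls per family (mean of at least 100, no overlap), the most abundant, and genes listed by name. On simulated counts of 18052 genes at a dispersion of 0.02, limma called 204 genes and recovered 191 of 200 changed genes. At a dispersion of 0.1 (18001 genes) it called 129 and recovered 127 of 198. All changed genes there differed at least 2-fold, so recovery of smaller differences was not measured. At most 200 genes changed there, against 68.8% of genes called in these data, and limma was given the scaling factors of the simulation. The simulation therefore did not measure errors of scaling or of a table in which most genes differ.

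There were 22 alternatives, among them edgeR 4.0.16 and DESeq2 1.42.0 on recovered reads, other scalings and filters, a replicate block, each sample left out, and removal of each sample's spline trend over GC content and length. Counting error is understated without molecular identifiers, so the spread between samples was used.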

Additional observations from a re-analysis of the deposited data

Results flagged for a closer look

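In 96 groups of samples from the 48 named members, 9 held a sample far from the others by Dixon's ratio, where chance flags about 1 in 20. In 7 of the 9 the sample was replicate 4 before culture, with normalized counts of 2580.5 for Hnrnpa0, 3177 for Hnrnpab, 889 for Rbm17, 9131 for Rbm39, 1112 for Snrpa, 1720 for Snrpb and 5856 for Srsf2. All of these lay below their group except Rbm39, which lay above it. Without that sample, 23 members were higher and 38 lower, against 23 and 37 with it. The remaining 2 were Hnrnpd in replicate 1 after culture, at 2055, and Rbm33 in replicate 5 before culture, at 5193.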

How the results depend on the processing

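Of 88 members, 60 were called in the main test, 51 to 64 under the 22 alternatives, and 52 to 61 when 1 sample was left out. The 59 named genes gave 1297 values, of which 1245 kept their side of the threshold (19 of these with another sign, passing in neither fit), 22 fell short, 23 newly passed and 7 reversed; 36 genes had no change. With the GC content and length trend removed, the Srsf genes called higher were 0, Hnrnp genes called lower 15, Snrp genes called higher 0 and lower 10, Sf3 genes called higher 2 and Rbm genes called higher 10. Under that setting the reversed log2 differences were −0.24 for Hnrnpu, 0.38 for Rbm10, 0.0765 for Rbm19, −0.37 for Rbm25, −0.26 for Snrpb2, −0.10 for Srsf1 and −0.18 for Srsf11. Among all members 5 calls turned: Rbm25 and Snrpb2 above, and Sf3a2 (0.42), Rbm15b (0.29) and Rbm7 (−0.20). Upper quartile scaling gave 5 Hnrnp and 2 Snrp genes higher and 5 Rbm genes lower, and quantile normalization 2 Snrp genes higher. Leaving out 1 sample gave 6 to 10 Rbm genes lower, the 6 without replicate 1 after culture. The causes were not tested.

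The main fit treated the samples as unpaired. Same-numbered samples correlated at 0.08, 0.08, −0.21 and −0.04 by title and at 0.08, 0.25, 0.35 and 0.04 by library name. The median standard error over all tested genes was 0.149 in the main fit. It was 0.154 with the block by title number and 0.128 with that by library number. Whether samples of the same library number belong together was not tested. Each replicate block drops 1 unmatched sample before culture; that by title number gave 51 member calls and 5 Rbm genes lower, and the block by library number 62 calls. Scarce members such as Rbm20 and Srsf12 rest on few reads, and the effect of depth on them was not tested. DESeq2 called 63 members and edgeR 62.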
